A study of Mus musculus with 12 samples.

Results

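The set described here is made of 40 enzymes and kinases of glycolysis, of pyruvate entry into the mitochondrion, of the tricarboxylic acid (TCA) cycle and of the malate, aspartate and glycerol phosphate shuttles. The members were named by symbol and matched to Ensembl gene identifiers, and all 40 were found among the 37991 genes of the count table and passed the filter on low counts. RNA was sequenced from pancreatic islets of male C57BL/6 mice at 2w and 12w of age. The 4 groups were Wt and Tg7 at each age, with 3 libraries each. Tg7 mice overexpress the microRNA miR-7 in β-cells and carry no other labelled allele, and the sources used here do not name the promoter. Wt mice were their littermates, and no group received an agent. The study placed the Tg7 mice at 2w before, and at 12w after, the onset of diabetes, so genotype and glycaemia cannot be told apart at 12w. Each library came from islets pooled from at least 3 animals, so p-values measure the spread between pools and not between single mice.

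Glycolysis splits glucose into pyruvate in the cytosol and makes a little ATP on the way. In β-cells most of that pyruvate enters the mitochondrion, either as acetyl-CoA through the pyruvate dehydrogenase complex or as oxaloacetate through pyruvate carboxylase, and its oxidation in the TCA cycle provides the ATP that couples glucose to insulin release. The pyruvate dehydrogenase kinases switch the complex off, and the shuttles carry the electrons of cytosolic NADH into the mitochondrion.

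Levels are given as CPM, counts relative to the library total after scaling with TMM factors. A member is said to be called, or to have risen or fallen, where its adjusted p from edgeR's quasi-likelihood test is below 0.05, with Benjamini-Hochberg adjustment over the 15961 genes tested. Log2 fold changes carry their standard error after the ± sign, with 3 libraries in each group. Total counts lay between 11610697 and 17515758 per library, and the members together held between 0.392% and 0.605% of them. Per kilobase of exon, the most abundant members over the 12 libraries were Aldoa, at 167 to 329.9 CPM per kb, and Gapdh, at 188 to 271 CPM per kb. Aldoc was the least abundant, at 2.44 to 7.05 CPM per kb. The insulin genes took 10.1% to 15.4% of counts in Wt and 1.84% to 4.09% in Tg7 libraries at 2w, and 14.8% to 29.99% and 8.08% to 8.24% at 12w. Of the 10 β-cell markers, 8 were lower in Tg7 at each age. Of 9 stellate and fibroblast markers, 6 were higher in Tg7 at 2w and 8 at 12w. At 12w 6 of 7 endothelial, 2 of 5 ductal and 2 of 5 erythroid markers were also higher, and in the other 11 marker lists at most 1 gene was called. In bulk RNA, fewer cells of a type and less RNA per cell cannot be told apart. One 12w Wt library, numbered 4, stood apart from its group, with a chi-square per degree of freedom of 191 and 113 against the other two, which differed from each other by 73.8. Transcripts that mark kidney were present in all 12 libraries. The 12 markers, listed after their counts had been seen, summed at 2w to 1236 to 2423 CPM in Wt and 2147 to 8574 CPM in Tg7, and at 12w to 2324 to 4595 CPM and 1711 to 3742 CPM. They kept nearly one ratio, with Slc34a1 at 124 to 137 counts per 1000 of Kap in every library, and the 2w Tg7 library numbered 3 held the most.

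Some members have processed copies in the genome that are identical over the length of a read. Of 100-base windows along the longest transcript, 89.6% of Pgk1, 86.8% of Pgam1, 84.96% of Gapdh, 59.1% of Eno1, 32.4% of Got2, 22.5% of Me1 and 19.3% of Suclg2 had an exact match elsewhere in the assembly, and 9.35% of Pdhb, 9.28% of Gpi1 and 7.28% of Tpi1. Values of the members named in this paragraph are uncertain to the extent that the counting split or dropped such reads.

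The mature sequence of the overexpressed microRNA, from RefSeq (GRCm38.p6), is shown because its seed decides which transcripts it can pair with. Capitals mark the seed, bases 2 to 8 counted from the 5′ end.
miR-7a-5p: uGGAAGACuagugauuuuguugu
Its match in a transcript is GTCTTCC, which was searched on the sense strand of the annotated 3′ UTRs of the mm9 assembly (NCBIM37). The match was present in 10 of the 40 members, or 25.0%, and in 2074 of the 14406 tested genes with an annotated 3′ UTR, or 14.4%, without regard to the length of the UTR. In 3 members it was followed by an A, which makes the longer match GTCTTCCA. The 10 members were Aldoc, Eno2, Pdha1, Pdk3, Cs, Idh2, Idh3a, Ogdh, Suclg2 and Fh1. The windows of 4 of them that fell in Tg7 islets at 12w follow, with those of Aldoc, which rose at 2w, and Pdk3, which was not called in Tg7 against Wt. Capitals mark the match, the coordinates are those of the match in mm9, and all lie in 3′ UTRs.
Fh1 (chr1:177531091-177531097, minus strand): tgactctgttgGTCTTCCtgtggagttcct
Idh3a (chr9:54452234-54452240, plus strand): aaagccaagctGTCTTCCcttagcccttgc
Cs (chr10:127798943-127798949, plus strand): tccgacctgtgGTCTTCCtggtcgtttggc
Ogdh (chr11:6234571-6234577, plus strand): accttgacaagGTCTTCCacttacccacca
Aldoc (chr11:78140514-78140520, plus strand): ggagggtacagGTCTTCCagggactgacac
Pdk3 (chrX:91010241-91010247, minus strand): tagtgtctgaaGTCTTCCagcattctgagc
A match describes the sequence and not a site in use. Of the 10 members with a match, 4 fell at 12w, against 6 of the 30 without one. Of all tested genes with an annotated 3′ UTR, 17.9% of the 2074 with a match and 10.9% of the 12332 without one were lower at that age. The medians of the members' log2 fold changes were −0.37 and −0.18, beside −0.09 and −0.01 for all those genes. Cs, Idh3a and Ogdh turned above 0 on library size alone. At 2w 1 member with a match rose and 2 fell, 2 without one rose and 1 fell, and the medians were −0.26 and −0.02. Of all tested genes with an annotated 3′ UTR, 5.21% of those with a match were higher at 2w and 7.76% lower. Among those without one the shares were 6.7% and 4.38%, and the medians of both sets were −0.04 and 0.04. Pcx, the member with the lowest fold change at 12w, had no match in its annotated 3′ UTR.

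Tg7 islets were compared with Wt islets at 2w to ask which enzymes differed before diabetes. Fumarase, pyruvate carboxylase and the catalytic subunit of isocitrate dehydrogenase (Fh1, Pcx and Idh3a) fell, while Aldoc, Pdk2 and Me1 rose. These 6 members are 15% of the 40, beside 10.6% of all genes tested, of which 6.07% were higher and 4.55% lower. The median log2 fold change of the members was −0.07, beside 0.03 for all genes, and 23 members were below 0 and 17 above. Tg7 and Wt libraries did not overlap for 19 of the 40 members, beside 35.9% of all genes. On library size alone the share of called genes that were higher went from 57.2% to 84%, and Aldoc, Pdk2, Me1 and Fh1 were the members called. The count that rose was 1 without the 2w Wt library 1 or 3 or the 2w Tg7 library 3, and the count that fell was 6 without the 12w Wt library 4.

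At 12w more members were called. In Tg7 islets 10 members fell and 2 rose, together 30% of the 40 beside 23.6% of all genes, and 31 of the 40 had a fold change below 0. Of all genes tested, 11.2% were lower and 12.5% were higher at this age. Those that fell were Fh1, Pcx, Dld, Gpd2, Idh3a, Cs, Dlst, Ogdh, Aldoa and Pgk1, and those that rose were Gpi1 and Pdk1. The summed CPM of the 40 members was 5731, 5813 and 5583 in the 12w Wt libraries and 4908, 4715 and 4941 in the 12w Tg7 libraries. The median log2 fold change was −0.24, beside −0.01 for all genes. Scaled by library size alone the median of all genes was itself 0.43 and that of the members 0.20, and the share of called genes that were higher went from 52.7% to 93.5%. On that scale 2 members fell (Pcx and Fh1) and 10 rose (Gpi1, Pfkl, Pfkm, Pfkp, Aldoc, Eno1, Pdk1, Pdk2, Idh3g and Me1), and Aldoa, Pgk1, Cs, Idh3a, Ogdh and Dlst turned to values between 0.04 and 0.11, all below the shifted median. Groups did not overlap for 22 of the 40 members, beside 37.1% of all genes, 20.7% higher and 16.3% lower. The count of members that fell rested on many libraries: it was 5 without the 2w Wt library 2 or 3, 6 without the 2w Tg7 library 1, 3 without the 12w Tg7 library 1 or 3, and 2 without the 12w Tg7 library 2. Pcx and Fh1 fell in all of these fits. In the same comparison the summed β-cell markers were at 199077 to 482566 CPM in Wt and 100469 to 105812 CPM in Tg7. Ins1, Ins2 and Iapp made up most of that sum in every library of this age. The stellate and fibroblast markers were at 87.5 to 149 CPM and 385 to 407 CPM, and the endothelial markers at 294 to 393 CPM and 645 to 704 CPM. The part of these markers in the members' differences was not tested.

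**Figure D1:**
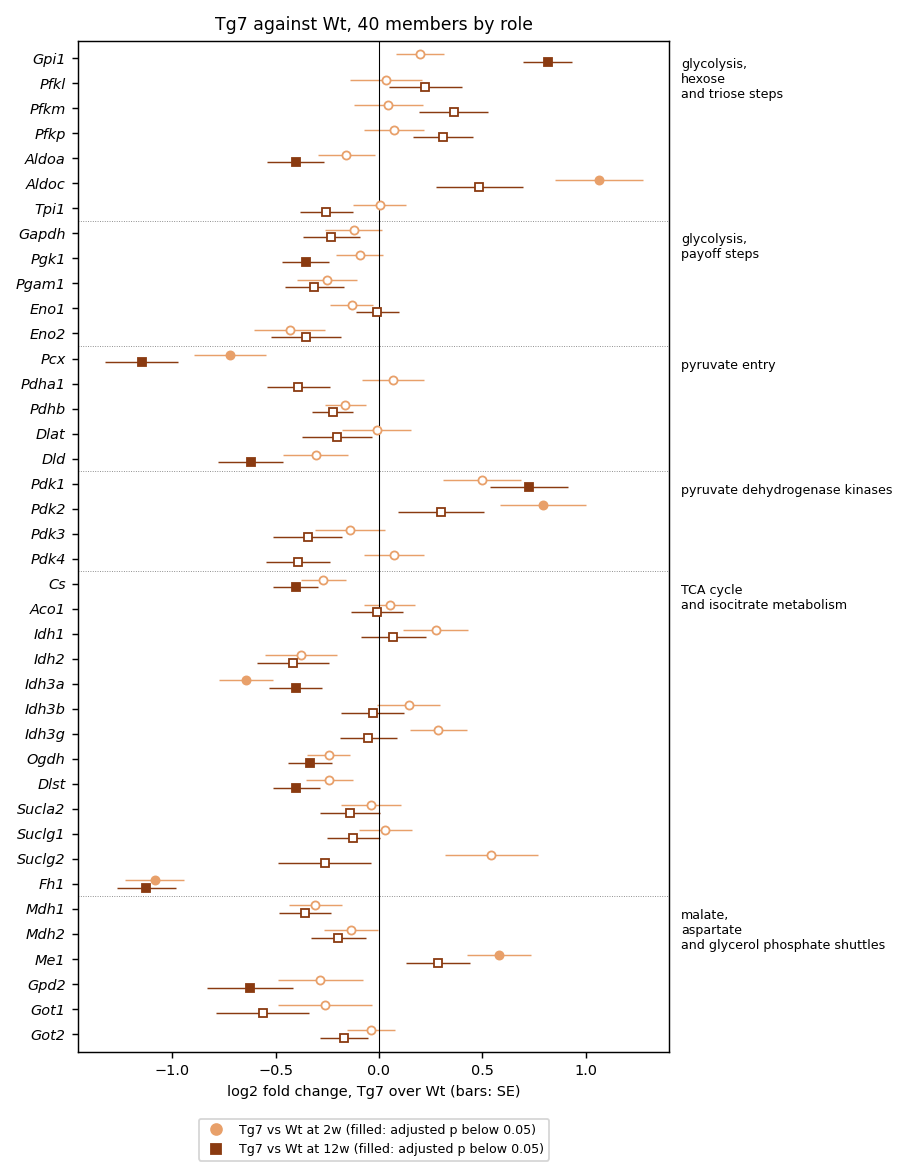
Log2 fold change of Tg7 over Wt for each of the 40 members, ordered by role, at 2w (circles) and 12w (squares), with bars of 1 standard error (3 libraries per group) and filled symbols where edgeR's adjusted p was below 0.05. Pcx, Idh3a and Fh1 are filled on the left at both ages; on library size alone the 12w values of Aldoa, Pgk1, Cs, Idh3a, Ogdh and Dlst lie just above 0, between 0.04 and 0.11, where the median of all genes is 0.43.

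Fh1 (fumarase, chr1:177530505-177555766), which hydrates fumarate to malate, had the lowest fold change of the members at 2w. It was at 182, 136 and 138 CPM in the 2w Wt libraries and 63.3, 71.9 and 79.8 CPM in the 2w Tg7 libraries (log2 fold change −1.09 ± 0.14, adjusted p = 0.00039). All Tg7 libraries lay far below all Wt libraries. At 12w it was at 169.5, 214 and 179.9 CPM in the 12w Wt libraries and 90.6, 83.7 and 84 CPM in the 12w Tg7 libraries (log2 fold change −1.13 ± 0.14, adjusted p = 9.35e-05). The effects at the 2 ages differed by −0.04 ± 0.20 on the log2 scale, and the call at each age held without any 1 of the 12 libraries.

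Pcx (pyruvate carboxylase, chr19:4510472-4621752), which makes oxaloacetate from pyruvate and refills the TCA cycle, was at 106, 100.4 and 91.1 CPM in the 2w Wt libraries and 47.1, 58 and 75.3 CPM in the 2w Tg7 libraries (log2 fold change −0.72 ± 0.17, adjusted p = 0.018). The groups did not overlap, and the Tg7 library with the most kidney transcripts was nearest to Wt; the 2w call was lost without the 2w Wt library 1 or 2 or the 2w Tg7 library 1 or 2, where the log2 fold change lay between −0.72 and −0.57. At 12w Pcx was at 79.9, 101 and 118 CPM in the 12w Wt libraries and 41.2, 43.5 and 50.2 CPM in the 12w Tg7 libraries (log2 fold change −1.15 ± 0.18, adjusted p = 0.000395), the lowest fold change of the members at that age, and this call held without any 1 of the 12 libraries.

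Idh3a (the catalytic α subunit of the NAD-dependent isocitrate dehydrogenase, chr9:54434288-54452468) was at 77.1, 66.1 and 68.3 CPM in the 2w Wt libraries and 41.4, 43.5 and 50.4 CPM in the 2w Tg7 libraries (log2 fold change −0.64 ± 0.13, adjusted p = 0.00612). At 12w it was at 64.7, 52.6 and 69.1 CPM in the 12w Wt libraries and 48.6, 44.5 and 47.7 CPM in the 12w Tg7 libraries (log2 fold change −0.40 ± 0.13, adjusted p = 0.036), and here the call was lost without 8 of the 12 libraries, with log2 fold changes between −0.41 and −0.31 there. Idh3b and Idh3g, the other subunits of the enzyme, were not called at either age. Idh3b gave a log2 fold change of 0.14 ± 0.15 (adjusted p = 0.595) at 2w and a log2 fold change of −0.03 ± 0.15 (adjusted p = 0.912) at 12w, and Idh3g gave a log2 fold change of 0.29 ± 0.14 (adjusted p = 0.199) and a log2 fold change of −0.05 ± 0.14 (adjusted p = 0.832).

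Cs, Ogdh, Dlst and Dld, of the citrate and oxoglutarate steps, fell at 12w on the TMM scale, with Cs, Ogdh and Dlst turning slightly above 0 on library size alone. Cs (citrate synthase) was at 109, 97.3 and 118 CPM in the 12w Wt libraries and 79.3, 83 and 82.8 CPM in the 12w Tg7 libraries (log2 fold change −0.40 ± 0.11, adjusted p = 0.0161). Ogdh, the first subunit of the oxoglutarate dehydrogenase complex, was at 309, 269 and 296 CPM in the 12w Wt libraries and 237, 228 and 227 CPM in the 12w Tg7 libraries (log2 fold change −0.33 ± 0.10, adjusted p = 0.0334). Dlst, its second subunit, was at 113, 134 and 128 CPM in the 12w Wt libraries and 89.7, 97.3 and 97.4 CPM in the 12w Tg7 libraries (log2 fold change −0.40 ± 0.11, adjusted p = 0.021). For all 3 the Tg7 libraries lay below the Wt libraries. Dld, the subunit that this complex shares with pyruvate dehydrogenase, was at 96.4, 98.2 and 147 CPM in the 12w Wt libraries and 79.6, 66.7 and 76.1 CPM in the 12w Tg7 libraries (log2 fold change −0.62 ± 0.16, adjusted p = 0.0112), with the 12w Wt library 4 far above the other two. Without that library Dld was at −0.39 ± 0.11 (adjusted p = 0.0219), and without the 12w Tg7 library 2 the call was lost, at −0.55 ± 0.18 (adjusted p = 0.0614). At 2w the same 4 genes had values of −0.27 ± 0.11 for Cs, −0.24 ± 0.10 for Ogdh, −0.24 ± 0.11 for Dlst and −0.31 ± 0.16 for Dld, none of them called, although their groups did not overlap. The 12w calls of Cs, Ogdh and Dlst were each lost without any 1 of the 3 Tg7 libraries of that age, and Ogdh also without 4 of the 2w libraries and Dlst without the 12w Wt library 2.

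The other members of the TCA group were Aco1, Idh1, Idh2, Sucla2, Suclg1 and Suclg2, and none was called in Tg7 against Wt at either age. Idh2, the NADP-dependent mitochondrial isocitrate dehydrogenase, had a log2 fold change of −0.38 ± 0.17 (adjusted p = 0.183) at 2w and a log2 fold change of −0.42 ± 0.17 (adjusted p = 0.102) at 12w. Suclg2, a β subunit of succinyl-CoA synthetase, was at 35, 44.6 and 40.9 CPM in the 2w Wt libraries and 43.5, 44.9 and 86.9 CPM in the 2w Tg7 libraries (log2 fold change 0.54 ± 0.22, adjusted p = 0.137), with the high value in the 2w Tg7 library that held the most kidney transcripts.

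**Figure D2:**
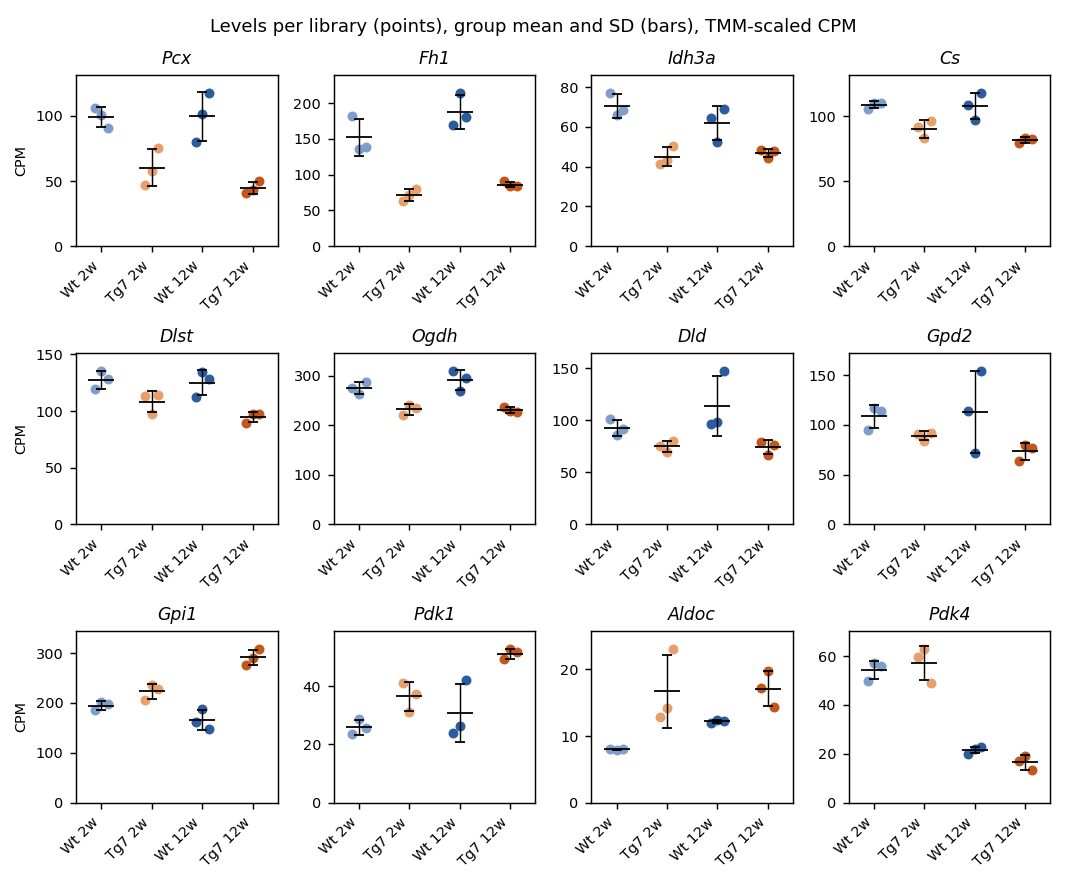
TMM-scaled CPM of 12 members in each library (points, 3 per group) with the group mean and SD (bars), for Wt and Tg7 islets at 2w and 12w. Fh1 and Pcx separate Tg7 from Wt at both ages and Pdk4 separates the ages; on library size alone the 12w differences of Idh3a, Cs, Dlst and Ogdh turn slightly above 0 while the median of all genes is 0.43.

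Among the glycolytic members, the enzymes of the hexose and triose steps moved in both directions. Gpi1 (glucose-6-phosphate isomerase, chr7:34987141-35015308) was at 186, 201 and 198 CPM in the 2w Wt libraries and 206, 236 and 228 CPM in the 2w Tg7 libraries, with a log2 fold change of 0.20 ± 0.12 (adjusted p = 0.299). At 12w it was at 162, 187 and 148 CPM in the 12w Wt libraries and 277, 291 and 308 CPM in the 12w Tg7 libraries (log2 fold change 0.82 ± 0.12, adjusted p = 0.000242). Its Tg7 libraries were above all Wt libraries at both ages, and the 12w call held without any 1 of the 12 libraries. The difference between the ages was 0.62 ± 0.16, which passed with DESeq2 but not with edgeR's quasi-likelihood test (adjusted p = 0.0926).

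Aldoc, the aldolase best known from brain, was at 8.01, 7.95 and 8.03 CPM in the 2w Wt libraries and 12.9, 14.2 and 23 CPM in the 2w Tg7 libraries (log2 fold change 1.06 ± 0.21, adjusted p = 0.00597). The Wt libraries were nearly identical and the Tg7 library 3 was far above the other two; without it the log2 fold change was 0.75 ± 0.18 (adjusted p = 0.0248). At 12w Aldoc was at 12, 12.4 and 12.3 CPM in the 12w Wt libraries and 17.1, 19.8 and 14.4 CPM in the 12w Tg7 libraries (log2 fold change 0.49 ± 0.21, adjusted p = 0.113), not called although the groups did not overlap. Aldoa, the major aldolase, was at 779.7, 909 and 663 CPM in the 12w Wt libraries and 635, 561 and 582 CPM in the 12w Tg7 libraries (log2 fold change −0.40 ± 0.14, adjusted p = 0.0469), and this call was lost without 10 of the 12 libraries, with values between −0.44 and −0.28 there, and on library size alone turned to 0.05. Pgk1 (phosphoglycerate kinase) was at 197, 189.6 and 205 CPM in the 12w Wt libraries and 167, 139.5 and 156 CPM in the 12w Tg7 libraries (log2 fold change −0.36 ± 0.11, adjusted p = 0.0341), lost without 6 of the 12 libraries and, on library size alone, at 0.09.

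The 3 phosphofructokinase genes, which catalyse the committed step, were not called at either age, with log2 fold changes from 0.03 to 0.07 at 2w and from 0.22 to 0.36 at 12w. The 5 genes of the payoff steps (Gapdh, Pgk1, Pgam1, Eno1 and Eno2) had median log2 fold changes of −0.13 at 2w and −0.31 at 12w on the TMM scale, and Pgk1 at 12w was the one called. Eno2, the neuronal enolase that is also strong in endocrine cells, was at 59.7, 47 and 59.9 CPM in the 2w Wt libraries and 37.4, 45.4 and 40.8 CPM in the 2w Tg7 libraries, with a log2 fold change of −0.43 ± 0.17 (adjusted p = 0.121).

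Among the genes of pyruvate entry other than Pcx and Dld, none of the 3 dedicated subunits of pyruvate dehydrogenase was called. Pdha1, the catalytic subunit, had a log2 fold change of 0.07 ± 0.15 (adjusted p = 0.824) at 2w and a log2 fold change of −0.39 ± 0.15 (adjusted p = 0.0775) at 12w, when all Tg7 libraries lay below all Wt libraries. Pdhb and Dlat had log2 fold changes of −0.16 ± 0.10 and −0.01 ± 0.17 at 2w and −0.22 ± 0.10 and −0.20 ± 0.17 at 12w.

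The 4 kinases of that complex differed from each other. Pdk1, a hypoxia-inducible kinase, was at 23.6, 28.7 and 25.5 CPM in the 2w Wt libraries and 41.1, 31.2 and 37.3 CPM in the 2w Tg7 libraries, with a log2 fold change of 0.50 ± 0.19 (adjusted p = 0.104). At 12w it was at 23.8, 26.4 and 42.2 CPM in the 12w Wt libraries and 49.2, 52.6 and 51.6 CPM in the 12w Tg7 libraries (log2 fold change 0.72 ± 0.19, adjusted p = 0.0133). All Tg7 libraries were above all Wt libraries at both ages, and without the 12w Wt library 1 the 12w value was 0.55 ± 0.19 (adjusted p = 0.0545). Pdk2, the most widely expressed kinase, was at 23.4, 36.6 and 27.5 CPM in the 2w Wt libraries and 40.9, 45 and 65.3 CPM in the 2w Tg7 libraries (log2 fold change 0.79 ± 0.21, adjusted p = 0.0276) and was not called at 12w (log2 fold change 0.30 ± 0.21, adjusted p = 0.335); the 2w call was lost without the 2w Wt library 1 or 3 or the 2w Tg7 library 3. Pdk3 had a log2 fold change of −0.14 ± 0.17 (adjusted p = 0.641) at 2w and a log2 fold change of −0.34 ± 0.17 (adjusted p = 0.159) at 12w. Pdk4, the kinase that is induced by fasting and fatty acids, had a log2 fold change of 0.07 ± 0.15 (adjusted p = 0.797) at 2w and a log2 fold change of −0.39 ± 0.15 (adjusted p = 0.0808) at 12w, with its Tg7 libraries below the Wt libraries at 12w.

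Of the 6 shuttle genes, Me1 rose at 2w and Gpd2 fell at 12w. Me1 (cytosolic malic enzyme, which makes NADPH) was at 55.2, 65.9 and 60.5 CPM in the 2w Wt libraries and 81.8, 76.3 and 113 CPM in the 2w Tg7 libraries (log2 fold change 0.58 ± 0.16, adjusted p = 0.0311), and the call was lost without 6 of the 12 libraries. Gpd2 (the mitochondrial glycerol phosphate dehydrogenase) was at 114, 71.6 and 154 CPM in the 12w Wt libraries and 64.2, 79.8 and 76.5 CPM in the 12w Tg7 libraries (log2 fold change −0.63 ± 0.21, adjusted p = 0.0423), with groups that overlapped, a Wt spread wider than the shift, and a call lost without 11 of the 12 libraries. Without the 12w Wt library 4 it was at −0.33 ± 0.17 (adjusted p = 0.176). Mdh1, the cytosolic malate dehydrogenase, was at 450.1, 445 and 443 CPM in the 12w Wt libraries and 372, 327 and 345 CPM in the 12w Tg7 libraries at the edge of the threshold (log2 fold change −0.36 ± 0.13, adjusted p = 0.0569). Got1, Got2 and Mdh2 were not called at either age.

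Of the 3 members that rose at 2w, Pdk2 and Me1 varied closely with the kidney transcripts and Aldoc less so. The correlation of each member's deviations from its group means with those of the summed kidney markers, a description over 12 libraries that share their scaling, was 0.94 for Pdk2, 0.92 for Me1 and 0.51 for Aldoc. It was −0.02 for Fh1, 0.42 for Pcx and 0.30 for Idh3a. Of the members not called at 2w, Idh3g had the highest value, 0.94. With the log2 of the kidney sum as a covariate of the edgeR fit, added after the data were seen, none of the members that rose at 2w was called: Pdk2 was at 0.29 ± 0.15 (adjusted p = 0.341), Me1 at 0.24 ± 0.13 (adjusted p = 0.414) and Aldoc at 0.77 ± 0.25 (adjusted p = 0.106). Over all genes that fit called 741 at 2w, beside 1695 without the covariate. The median kidney sum at 2w was 1472 CPM in Wt and 3166 CPM in Tg7, so the covariate shares part of the genotype contrast. Fh1, Pcx and Idh3a kept their calls in that fit, at −1.08 ± 0.19, −0.93 ± 0.22 and −0.72 ± 0.17. Without the 2w Tg7 library 3, Pdk2 was at 0.55 ± 0.20 (adjusted p = 0.137) and Me1 at 0.37 ± 0.14 (adjusted p = 0.156), while Aldoc, Pcx, Idh3a and Fh1 were still called. At 12w the same covariate left Gpi1 and Pdk1 called and added Pdk2 and Me1 among the members that rose, and 9 members fell.

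**Figure D3:**
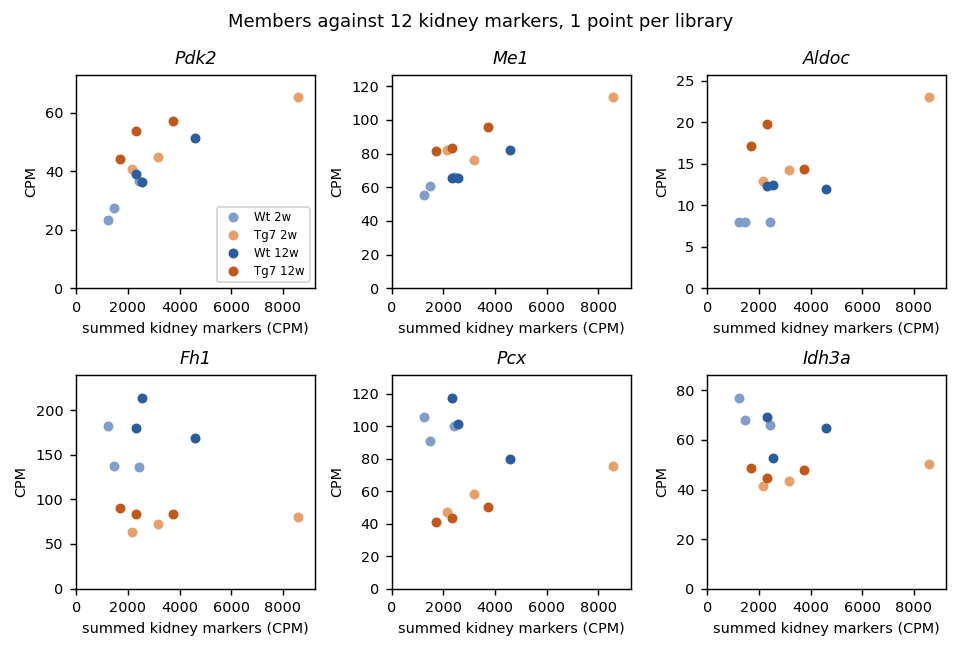
CPM of 6 members against the summed CPM of 12 kidney marker genes, 1 point per library, coloured by group. Pdk2 and Me1 rise with the kidney sum, most in the 2w Tg7 library at 8574 CPM. For Fh1, Pcx and Idh3a the Tg7 libraries lie below the Wt libraries of the same age. The kidney sums of the 2w groups overlap little, at 1236 to 2423 CPM in Wt and 2147 to 8574 CPM in Tg7.

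Whether the Tg7 effect itself changed between 2w and 12w was tested as the difference of both contrasts. By edgeR 0 of the 40 members passed, beside 1.18% of all genes (0.871% higher and 0.307% lower), and by DESeq2 1 passed (Gpi1). At an unadjusted p below 0.05 there were 3 with edgeR (Gpi1, Pdk4 and Suclg2) and 4 with DESeq2 (those and Pdha1), beside 14.5% and 10.7% of all genes with a p. The larger number of members called at 12w than at 2w is therefore not shown to be a difference of effects.

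Age was the second factor of the design. From 2w to 12w in Wt islets, 7 members rose and 2 fell, which is 22.5% of the 40 beside 15.8% of all genes. Of all genes 7.9% rose and 7.91% fell. The ages did not overlap for 15 members, beside 31.4% of all genes (15.7% higher and 15.6% lower). On library size alone the median of all genes was −0.35 and the share of called genes that were higher went from 50% to 7.89%. On that scale none of the 7 was called higher, with Pgk1 turning to −0.04, and 6 members were called lower. The member with the largest change was Pdk4, at 49.9, 57.2 and 55.8 CPM in the 2w Wt libraries and 20.04, 22 and 22.6 CPM in the 12w Wt libraries (log2 fold change −1.33 ± 0.15, adjusted p = 7.58e-05). All 12w libraries lay far below the lowest 2w library. In Tg7 islets Pdk4 was at 59.4, 62.7 and 49.1 CPM in the 2w Tg7 libraries and 16.9, 19.3 and 13.2 CPM in the 12w Tg7 libraries (log2 fold change −1.79 ± 0.15, adjusted p = 1.09e-05), and both calls held without any 1 library.

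Eno2 rose with age in Wt islets, from 59.7, 47 and 59.9 CPM at 2w to 98.9, 116 and 68.9 CPM at 12w (log2 fold change 0.77 ± 0.17, adjusted p = 0.00815), a call lost without the 2w Wt library 2. It rose in Tg7 islets as well (log2 fold change 0.84 ± 0.17, adjusted p = 0.00525), where it held without any 1 library. Got1, the cytosolic aspartate aminotransferase of the malate-aspartate shuttle, was at 36.7, 23.3 and 28.3 CPM in the 2w Wt libraries and 47.8, 43.2 and 68.1 CPM in the 12w Wt libraries (log2 fold change 0.85 ± 0.23, adjusted p = 0.0204). Mdh1, the cytosolic malate dehydrogenase of the same shuttle, was at 308, 335 and 332 CPM in the 2w Wt libraries and 450.1, 445 and 443 CPM in the 12w Wt libraries (log2 fold change 0.46 ± 0.13, adjusted p = 0.0266). Pdk3 rose from 13.9, 12 and 12.7 CPM to 23.9, 17.7 and 20.5 CPM (log2 fold change 0.68 ± 0.17, adjusted p = 0.0145). Idh1, the cytosolic NADP-dependent isocitrate dehydrogenase, rose from 55.5, 71.2 and 67.7 CPM to 103, 87.3 and 107 CPM (log2 fold change 0.61 ± 0.16, adjusted p = 0.0179). Each of these 4 lost its call without 2 to 4 of the 12 libraries and with the kidney covariate. In that fit Eno2 and Pdk4 were the members still called, and over all genes 1983 were called, beside 2524 without the covariate.

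Aldoa rose from 614, 553 and 579 CPM to 779.7, 909 and 663 CPM (log2 fold change 0.43 ± 0.14, adjusted p = 0.048), and Pgk1 had a log2 fold change of 0.35 ± 0.11 (adjusted p = 0.0472); each call was lost without 11 of the 12 libraries. Pfkl, the liver-type phosphofructokinase, fell from 67, 68.4 and 66 CPM to 29.6, 47.7 and 57.4 CPM (log2 fold change −0.57 ± 0.18, adjusted p = 0.0415), lost without 8 of the 12 libraries, its lowest value being in the 12w Wt library 1. Without that library the log2 fold change was −0.34 ± 0.12 (adjusted p = 0.076). Counted over libraries left out in turn, between 1 and 7 members rose in Wt islets: 3 without the 2w library 1, 1 without the 2w library 2 or 3, and 4 without the 12w Tg7 library 1.

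From 2w to 12w in Tg7 islets 2 members rose and 1 fell, which is 7.5% of the 40 beside 13% of all genes, of which 7.02% rose and 6.01% fell. Besides Eno2 and Pdk4, Gpi1 rose, at 206, 236 and 228 CPM in the 2w Tg7 libraries and 277, 291 and 308 CPM in the 12w Tg7 libraries (log2 fold change 0.39 ± 0.12, adjusted p = 0.0434); that call was lost without 9 of the 12 libraries, and 4 members rose without the 12w Wt library 4. In Wt islets Gpi1 had a log2 fold change of −0.23 ± 0.12 (adjusted p = 0.19).

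Paralogous enzymes were also compared as shares of their family, from CPM per kb of exon, since levels of different genes compare only per length. With 3 libraries against 3 the two-sided exact permutation test cannot go below p = 0.10, and over the 60 tests of this family that value adjusts to 0.182, so no share passed. Pdk4 made up 47.2, 44.9 and 48.4% of the summed kinase level in the 2w Wt libraries and 16.6, 22.4 and 19.96% in the 12w Wt libraries. In Tg7 islets its share went from 42.5, 44.8 and 31.4% in the 2w libraries to 15.5, 15.4 and 10.6% in the 12w libraries. The 2w and 12w libraries did not overlap in either genotype (exact permutation p = 0.10 in each), and Pdk2 took the largest share at 12w.

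Pdk1 made up 8.92, 12.1 and 16.8% of the kinase level in the 12w Wt libraries and 20.5, 19 and 18.7% in the 12w Tg7 libraries, while Pdk3 made up 27.2, 24.7 and 24.9% and 18.8, 17.8 and 19.5%. Both differences were complete separations (exact permutation p = 0.10 in each). Aldoc made up 1.15% ± 0.06 (SD, n = 3) of the aldolase level in Wt and 2.62% ± 0.72 in Tg7 at the age of 2w. At 12w the shares were 1.32% ± 0.20 and 2.39% ± 0.44. In Wt islets Pfkl made up 39.98% ± 2.24 of the phosphofructokinase level at 2w and 30.4% ± 2.58 at 12w, and in Tg7 islets 39.8% ± 2.83 and 28.99% ± 0.998. The share of Eno2 in the summed enolases, of which Eno1 is uncertain because of its copies, was 21.3% ± 1.92 and 31.3% ± 4.26 in Wt and 18.1% ± 1.81 and 26.7% ± 1.47 in Tg7 islets at 2w and 12w.

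**Figure D4:**
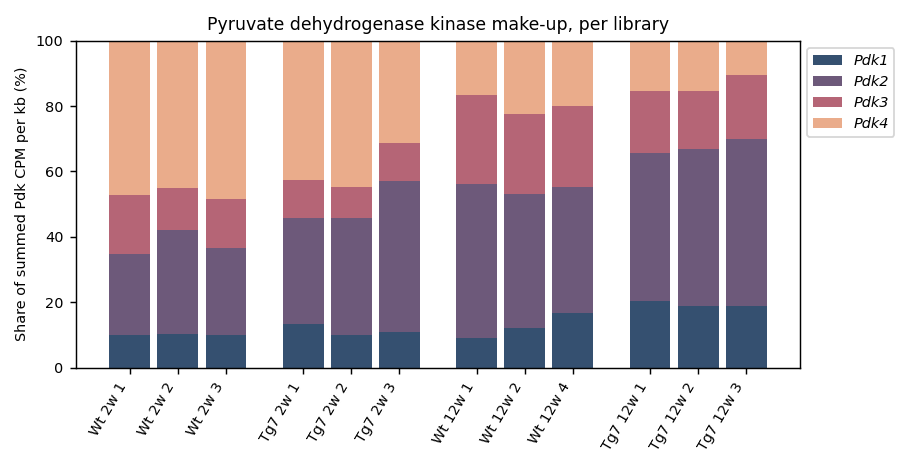
Share of each pyruvate dehydrogenase kinase gene in the summed Pdk CPM per kb, 1 bar per library and 100% in each. The share of Pdk4 is between 31.4% and 48.4% in the 2w libraries and between 10.6% and 22.4% in the 12w libraries of both genotypes.

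The genes on either side of the members were taken from 8 lists of transporters, other enzymes of the pathways and their regulators, of which 116 of 119 genes were tested. At 2w 10 rose and 11 fell in Tg7 islets, and at 12w 14 rose and 20 fell, which is 18.1% and 29.3% of the 116 beside 10.6% and 23.6% of all genes. Of the 13 genes of glucose entry and phosphorylation, 1 was called at 2w and 5 at 12w. Slc2a2, the glucose transporter GLUT2, was at 173, 176 and 181 CPM in the 2w Wt libraries and 40.7, 24.7 and 40.6 CPM in the 2w Tg7 libraries (log2 fold change −2.32 ± 0.30, adjusted p = 0.000286). At 12w it was at 208, 173 and 363 CPM in the 12w Wt libraries and 21.4, 43.4 and 36.6 CPM in the 12w Tg7 libraries (log2 fold change −2.88 ± 0.30, adjusted p = 1.87e-05), and both separations were complete. Slc2a1, the transporter GLUT1, fell at 12w, from 33.3, 46.8 and 30.7 CPM in Wt to 14.9, 10.9 and 18.6 CPM in Tg7 (log2 fold change −1.32 ± 0.21, adjusted p = 0.000497).

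Hk1 and Hk2, hexokinases of high affinity, rose at 12w, while Hk3 had a log2 fold change of 1.01 ± 0.56 (adjusted p = 0.221). Hk1 was at 12.2, 12.9 and 11.9 CPM in the 12w Wt libraries and 22.1, 18 and 18.2 CPM in the 12w Tg7 libraries (log2 fold change 0.66 ± 0.15, adjusted p = 0.00525). Hk2 was at 0.504, 0.0794 and 0.467 CPM in the 12w Wt libraries and 2.37, 2.21 and 3.26 CPM in the 12w Tg7 libraries (log2 fold change 2.91 ± 0.54, adjusted p = 0.00167), from a Wt level of 4, 1 and 7 counts. At 2w Hk1 had a log2 fold change of 0.22 ± 0.14 (adjusted p = 0.36) and Hk2 had a log2 fold change of 1.25 ± 0.44 (adjusted p = 0.0825).

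Of the 23 other glycolytic and gluconeogenic enzymes, 3 rose and 4 fell at 2w, and 4 rose and 4 fell at 12w. Of all genes, 10.6% were called at 2w and 23.6% at 12w. G6pc2, the islet glucose-6-phosphatase subunit, was at 1477, 951 and 1121 CPM in the 2w Wt libraries and 118, 111 and 72.4 CPM in the 2w Tg7 libraries (log2 fold change −3.56 ± 0.21, adjusted p = 1.28e-06) and at 2609.8, 2393 and 2712 CPM in the 12w Wt libraries and 255, 221 and 256 CPM in the 12w Tg7 libraries (log2 fold change −3.40 ± 0.21, adjusted p = 1.88e-07). Tigar, a fructose bisphosphatase of the p53 response, was at 41.5, 30.5 and 35.3 CPM in the 2w Wt libraries and 14.9, 9.94 and 13.7 CPM in the 2w Tg7 libraries (log2 fold change −1.48 ± 0.17, adjusted p = 0.000145). Fbp2, the muscle-type fructose bisphosphatase, was at 2.39, 1.91 and 2.93 CPM in the 12w Wt libraries and 23.9, 29.9 and 33.2 CPM in the 12w Tg7 libraries (log2 fold change 3.58 ± 0.31, adjusted p = 4.16e-06). Pfkfb3, which makes the activator of phosphofructokinase, was at 7.56, 12.6 and 16.9 CPM in the 12w Wt libraries and 37.7, 37.6 and 37.3 CPM in the 12w Tg7 libraries (log2 fold change 1.58 ± 0.28, adjusted p = 0.00104). Pkm, a pyruvate kinase gene counted here over all its transcripts, was at 739, 629 and 667 CPM in the 2w Wt libraries and 475, 435 and 443 CPM in the 2w Tg7 libraries (log2 fold change −0.59 ± 0.13, adjusted p = 0.0105) and was not called at 12w (log2 fold change −0.18 ± 0.13, adjusted p = 0.344). Its 2w call was lost without the 2w Wt library 1 (−0.53 ± 0.14, adjusted p = 0.0513), and exact copies cover 10.8% of its windows.

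Of the 9 genes of lactate and pyruvate handling, 2 were called at 2w and 3 at 12w, beside 10.6% and 23.6% of all genes. Ldha, the muscle-type lactate dehydrogenase, was at 34.3, 35.7 and 29.3 CPM in the 2w Wt libraries and 56.6, 51.4 and 86.9 CPM in the 2w Tg7 libraries (log2 fold change 0.98 ± 0.27, adjusted p = 0.0342), the highest value again in the 2w Tg7 library 3. The call was lost without that library (0.70 ± 0.27, adjusted p = 0.157) or any 1 of the 2w Wt libraries, and at 12w it had a log2 fold change of 0.19 ± 0.27 (adjusted p = 0.666). Slc16a1, the lactate transporter MCT1, was at 1.89, 1.43 and 1.33 CPM in the 12w Wt libraries and 5.07, 5.26 and 6.06 CPM in the 12w Tg7 libraries (log2 fold change 1.83 ± 0.29, adjusted p = 0.000489), with a log2 fold change of 0.82 ± 0.27 (adjusted p = 0.0656) at 2w. Bsg, the chaperone of that transporter, was at 387, 519.9 and 436 CPM in the 12w Wt libraries and 933, 849 and 903 CPM in the 12w Tg7 libraries (log2 fold change 1.0002 ± 0.13, adjusted p = 8.95e-05). Mpc1, a subunit of the mitochondrial pyruvate carrier, was at 86.6, 78 and 72.2 CPM in the 12w Wt libraries and 38.2, 38.8 and 36.3 CPM in the 12w Tg7 libraries (log2 fold change −1.06 ± 0.13, adjusted p = 7.75e-05), uncertain because exact copies cover 71.4% of its windows.

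Of the 15 other genes of pyruvate dehydrogenase and the TCA cycle, 2 rose at 2w, and 1 rose and 4 fell at 12w. Of all genes, 10.6% were called at 2w and 23.6% at 12w. Me3, the mitochondrial NADP-dependent malic enzyme, was at 3.98, 5.82 and 4.47 CPM in the 2w Wt libraries and 8.06, 12.8 and 12.6 CPM in the 2w Tg7 libraries (log2 fold change 1.23 ± 0.23, adjusted p = 0.00398) and at 6.05, 7.78 and 5.20 CPM in the 12w Wt libraries and 18.9, 19.9 and 21.3 CPM in the 12w Tg7 libraries (log2 fold change 1.66 ± 0.23, adjusted p = 0.000192). Pdpr, the regulatory subunit of the phosphatase that switches pyruvate dehydrogenase on, was at 6.43, 5.24 and 26.7 CPM in the 12w Wt libraries and 3.27, 4.43 and 3.55 CPM in the 12w Tg7 libraries (log2 fold change −1.79 ± 0.51, adjusted p = 0.0214), with the 12w Wt library 4 far above all others. Without that library Pdpr was at −0.63 ± 0.33 (adjusted p = 0.198), and the call was also lost without any 1 of the 12w Tg7 libraries. Pdp1, a catalytic subunit of that phosphatase, was at 11.2, 8.81 and 16.3 CPM in the 12w Wt libraries and 5.13, 6.86 and 6.92 CPM in the 12w Tg7 libraries (log2 fold change −0.94 ± 0.24, adjusted p = 0.0108), lost without the 12w Tg7 library 1 (−0.79 ± 0.26, adjusted p = 0.0564).

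**Figure D5:**
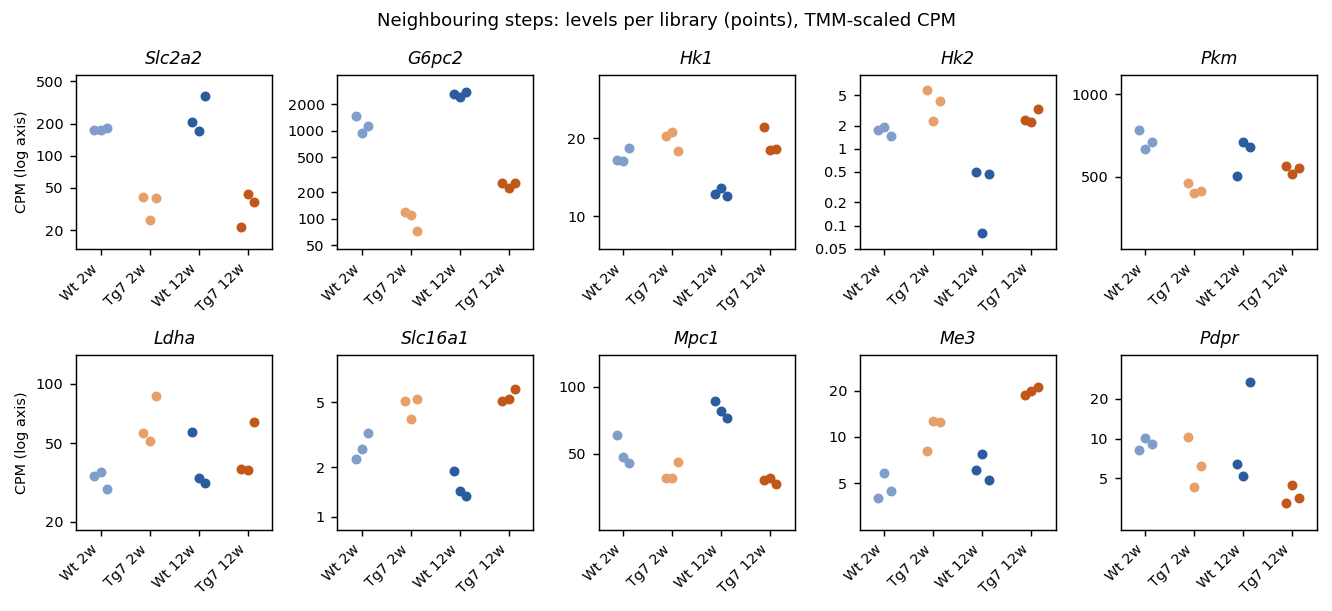
TMM-scaled CPM (log axes) of 10 genes of neighbouring steps in each library, 3 per group. Slc2a2 and G6pc2 are lower in all Tg7 libraries than in all Wt libraries at both ages, and Hk1, Hk2, Slc16a1 and Me3 are higher in all 12w Tg7 libraries than in all 12w Wt libraries.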

How the data were processed

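Islets were isolated with Liberase and a Histopaque gradient, and RNA-seq libraries were prepared with the NEB Ultra II kit. Per the methods and the labels, the authors trimmed the paired-end reads with Trimmomatic, aligned them to mm9 (NCBIM37) with TopHat2 2.0.11 and counted them per Ensembl gene with featureCounts. The sources used here do not state the strand setting, so reads of overlapping antisense genes cannot be told apart. The deposited values are raw counts, not normalized, of 37991 genes in 12 libraries, 13981 of them without a count; gene names came from the Ensembl annotation of that assembly (37205 identifiers matched).

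Counts were filtered with filterByExpr (minimum count 10, minimum total 15), scaled with TMM factors and fitted as 4 group means in edgeR 4.0.16 (R 4.3.3) with glmQLFit and glmQLFTest; the common biological coefficient of variation was 0.212. Each standard error was taken from the fold change and the F statistic. The main design has no block. The alternatives were DESeq2 1.42.0 (the authors' tool), no filter, upper-quartile factors, library size alone, a stricter filter (50 counts in 3 libraries), scaling without the 20 most abundant genes, the 2 groups alone, a replicate block and each library left out. The kidney list, its use as a covariate the fit without 2 libraries and the neighbouring genes with each library left out were added after the data were seen. The members, the lists and the tests were chosen with earlier results of these data known. Values in full are given for up to 10 called members with the highest and up to 10 with the lowest fold change per comparison, and for up to 3 called genes per pathway list plus Ldha, Slc16a1, Slc2a2, Pkm, Hk1 and Hk2, and 1 more gene that is not reported here; the members shown without a call and the enzyme shares were picked after their values were seen. Exact copies were sought with minimap2 2.31 in windows of 100 bases every 10 bases. Depth limits precision: the fits were tested on simulated counts.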

Additional observations from a re-analysis of the deposited data

Results flagged for a closer look

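In the neighbouring lists 2 genes were picked out because the Tg7 effect differed between the ages by edgeR's test of the difference itself. For Fbp2 the difference of log2 fold changes, 12w minus 2w, was 2.55 ± 0.43 (adjusted p = 0.0103): it was at 1.78, 3.83 and 2.66 CPM in the 2w Wt libraries and 5.92, 3.70 and 7.004 CPM in the 2w Tg7 libraries and at 2.39, 1.91 and 2.93 CPM and 23.9, 29.9 and 33.2 CPM at 12w. For Epas1, which encodes HIF-2α, it was 1.17 ± 0.17 (adjusted p = 0.00378): it was at 133, 116 and 128 CPM in the 2w Wt libraries and 154, 154 and 136 CPM in the 2w Tg7 libraries and at 52.7, 53.4 and 66.7 CPM and 160.3, 147 and 153 CPM at 12w. The 12w Tg7 level of Epas1 was near its level in both 2w groups, and the 12w Wt level was lower. Epas1 is known from endothelial cells, and the summed endothelial markers moved in the same way, at 695 to 919 CPM in 2w Wt, 793 to 882 CPM in 2w Tg7, 294 to 393 CPM in 12w Wt and 645 to 704 CPM in 12w Tg7 islets; their part in the result was not tested.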

How the results depend on the processing

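The limits are the 3 pools per group, the many small effects near the threshold, the insulin share that shifts the scale, kidney transcripts and exact copies of some members. Directions held for all 30 named fold changes under every alternative except library size alone, where 7 reversed, to 0.0475 (Aldoa), 0.0866 (Pgk1), 0.0397 (Cs), 0.0375 (Idh3a), 0.11 (Ogdh) and 0.0386 (Dlst) in Tg7 against Wt at 12w and to −0.0433 (Pgk1) for age in Wt; DESeq2 made the same 30 calls. Counts are given as members that rose and fell; the reference counts are 3 and 3 at 2w, 2 and 10 at 12w, 0 and 0 for the difference, 7 and 2 for age in Wt, and 2 and 1 for age in Tg7. Library size alone gave 1 lower at 2w, 10 higher and 2 lower at 12w, 1 higher for the difference, 0 higher and 6 lower for age in Wt and 1 higher for age in Tg7. Upper-quartile factors gave 4 higher and 4 lower at 12w and 1 higher for age in Tg7. No filter gave 4 lower at 12w, 4 higher for age in Wt and 1 higher for age in Tg7. DESeq2 gave 1 higher for the difference. edgeR on the 2 groups alone gave 3 lower at 12w, 0 higher and 1 lower for age in Wt and 2 lower for age in Tg7; it could not be run for the difference, which needs 4 groups. The kidney covariate gave 0 higher at 2w, 4 higher at 12w, 1 higher and 1 lower for age in Wt and 4 higher for age in Tg7. Without both the 2w Tg7 library 3 and the 12w Wt library 4, chosen after seeing the data, there were 5 lower at 2w, 12 higher for age in Wt and 7 higher for age in Tg7. Leaving out 1 library at a time gave 1 to 4 higher and 2 to 6 lower at 2w, 1 to 3 higher and 2 to 12 lower at 12w, 0 to 1 higher for the difference, 1 to 7 higher and 1 to 2 lower for age in Wt, and 1 to 4 higher and 1 to 2 lower for age in Tg7; the group of 2 is then assumed to vary like the others. With the replicate block the counts were 5 lower at 2w, 4 higher and 13 lower at 12w and 6 higher for age in Tg7; same-numbered libraries share only a number, since their deviations correlated between −0.167 and 0.184, and 0 of the 6 libraries at each age correlated best with its own number. The share of Pdk1 at 12w differed by 11.2 percentage points in raw counts, against 6.78 per kb. In simulated counts for Tg7 against Wt, edgeR found 49.5% of 200 planted 2-fold changes at 2w and 50.5% at 12w, so smaller changes can be missed at this depth and number of libraries. The changes were planted in genes drawn at random from all tested genes, so these shares do not measure the power for the members.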

Other observations

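Of 15 transcriptional regulators of metabolism, 2 rose and 3 fell in Tg7 islets at 2w, and 2 rose and 5 fell at 12w. Over all genes tested, 6.07% rose and 4.55% fell at 2w, and 12.5% rose and 11.2% fell at 12w. Pparg, a nuclear receptor of lipid metabolism, was at 14.4, 6.63 and 12.7 CPM in the 2w Wt libraries and 3.25, 1.30 and 1.34 CPM in the 2w Tg7 libraries (log2 fold change −2.51 ± 0.35, adjusted p = 0.000636 by edgeR's quasi-likelihood test) and at 16.1, 16.7 and 17.5 CPM in the 12w Wt libraries and 3.38, 2.77 and 3.03 CPM in the 12w Tg7 libraries (log2 fold change −2.45 ± 0.35, adjusted p = 0.00021). Mlx, the partner of the glucose-responsive factor Mlxipl (ChREBP), was at 62.6, 78.6 and 52.7 CPM in the 12w Wt libraries and 36.9, 37.2 and 34.5 CPM in the 12w Tg7 libraries (log2 fold change −0.84 ± 0.15, adjusted p = 0.00111). Mlxipl itself went the other way and was called higher at 12w (log2 fold change 0.68), a call lost without 2 of the 12 libraries in turn. Of 18 targets of HIF-1 outside glycolysis, 1 rose and 2 fell at 2w, and 2 rose and 1 fell at 12w. The shares called over all genes were 10.6% at 2w and 23.6% at 12w. Egln3, the oxygen-sensing prolyl hydroxylase, was at 1.13, 1.43 and 2.13 CPM in the 12w Wt libraries and 11, 6.47 and 9.33 CPM in the 12w Tg7 libraries (log2 fold change 2.47 ± 0.44, adjusted p = 0.00119). Ero1l, an oxidase of the endoplasmic reticulum, was at 165, 103 and 184 CPM in the 12w Wt libraries and 80.7, 64.3 and 67.6 CPM in the 12w Tg7 libraries (log2 fold change −1.09 ± 0.20, adjusted p = 0.00137), and exact copies cover 39.3% of its windows.

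Of 8 genes of the pentose phosphate pathway, 1 rose and 1 fell at 12w, beside 12.5% and 11.2% of all genes. G6pdx, its first enzyme, was at 40.2, 35.3 and 41.7 CPM in the 12w Wt libraries and 25.5, 29.4 and 23.6 CPM in the 12w Tg7 libraries (log2 fold change −0.58 ± 0.16, adjusted p = 0.0164), lost without the 12w Tg7 library 1 or 3. Pgd, a later dehydrogenase of the pathway, was at 36.2, 44.3 and 45.3 CPM in the 12w Wt libraries and 69.5, 61.1 and 63.8 CPM in the 12w Tg7 libraries (log2 fold change 0.62 ± 0.19, adjusted p = 0.0307), lost without the 12w Wt library 1 or any 1 of the 12w Tg7 libraries. Of 15 carriers and export enzymes, 1 was called at each age, beside 10.6% of all genes at 2w and 23.6% at 12w. Acly, which cuts exported citrate into acetyl-CoA, was at 1140.4, 1236 and 1175 CPM in the 2w Wt libraries and 781, 639 and 694 CPM in the 2w Tg7 libraries (log2 fold change −0.75 ± 0.22, adjusted p = 0.0438), a call lost without 8 of the 12 libraries. Glul (glutamine synthetase) was at 472, 667 and 499.6 CPM in the 12w Wt libraries and 369.5, 382 and 389 CPM in the 12w Tg7 libraries (log2 fold change −0.52 ± 0.15, adjusted p = 0.0202), lost without the 12w Wt library 2 or any 1 of the 12w Tg7 libraries.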
